A study of Homo sapiens with 4 samples.

Results

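Mitochondrial complex I is the NADH dehydrogenase of the respiratory chain, and its genes were read here through the accessibility of their promoters. Members were the genes whose symbol starts with NDUF in the first of 2 deposited peak tables and which had a peak annotated as promoter, that is within 3 kb of a transcript start. The strongest peak by mean level stood for each gene, and coordinates are hg38. This gave 25 subunit genes and 4 NDUFAF assembly factor genes, 29 of the 10187 genes with a promoter peak in that table. A further 6 NDUF symbols were read apart because they name no complex I protein of their own. Values from the second table belong to the peak there that overlapped the member's peak most, which 21 of the 25 subunits and all 4 assembly factors had.

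The assay was ATAC-seq, which counts the fragments that a transposase cuts and tags where chromatin is open. The cells were Kasumi-1, a line of acute myeloid leukaemia that carries the t(8;21) fusion of RUNX1 and RUNX1T1. The control group carried sgNT with the genotype label WT, and the other group was a SETD8 knockout made with CRISPR/Cas9, with 2 libraries in each group and 50000 cells per library. SETD8, now KMT5A, is the enzyme that places a single methyl group on lysine 20 of histone H4. The guides, the time since editing, and whether the knockout cells were a clone or a pool are details not given in the sources used here. Mitochondrial homeostasis is named in the series title, and the genes of complex I bear on that question.

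Complex I takes electrons from NADH and passes them through a flavin and a chain of iron-sulfur clusters to ubiquinone, and it pumps protons across the inner membrane as it does so. A matrix arm holds the NADH and quinone sites, and a membrane arm holds the proton pumps. The pump subunits are encoded in mitochondrial DNA, while the core subunits of the matrix arm and all accessory subunits come from nuclear genes. Dedicated factors, many named NDUFAF, assemble the modules and then leave. Leukaemia stem cells are known for their reliance on oxidative phosphorylation, of which complex I is the entry point.

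Some facts of the whole series bear on every value below. The second table compared the libraries of replicate 2, with 2091322 knockout and 5337995 control reads in peaks, and so had 1 library per group and no replicate check. Which libraries entered the first table is not stated. Nearly all peaks had a lower normalised level in the knockout, with medians over all peaks of -0.87 (log2) in the first and -1.23 in the second table. No peak of either table passed the authors' test at an adjusted p of 0.05, and the smallest adjusted p-values were 0.731 and 0.578. A fold change is therefore read here against its table's median as well as against 0. In cells measured in bulk, a lower level in every cell cannot be told apart from a closed site in part of the cells. After normalisation the control library of replicate 2 had 4906719 reads in peaks, against the 2091322 of the knockout library. Whether the general lowering came from the cells, or from the libraries and their scaling, was not tested. The KMT5A promoter itself had 251 reads in the knockout and 685 normalised reads in the control library of replicate 2, and its log2 fold changes were -0.82 and -1.45 in the authors' first and second deposited tables. Accessibility of the promoter is no measure of the edit in the coding sequence, so it does not check the knockout. Of 8 myeloid marker genes, 5 had a promoter peak (CD34, KIT, SPI1, CEBPA and ANPEP) and MPO, CD33 and RUNX1T1 had none under their own symbol. Of 8 markers of other cell types, CD8A and EPCAM had a promoter peak, and CD3E, MS4A1, HBB and ALB were among those with none.

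In the first table the subunits by symbol with the lowest and highest fold change were NDUFS4 and NDUFS7, and in the second NDUFAB1 and NDUFB1. Their promoter sequences are shown first. Each runs from 250 bases before to 50 bases after a RefSeq start (GRCh38.p14), 5′ to 3′ on the strand of the gene. Capitals mark matches to the motifs described further down: ATGGCGG in NDUFS4 and NDUFS7, and CCAAT read on the other strand in NDUFB1, while NDUFAB1 has none. The windows lie at chr5:53560389-53560688 on the plus strand, chr19:1383657-1383956 on the plus strand, chr16:23596267-23596566 on the minus strand and chr14:92121657-92121956 on the minus strand.
NDUFS4: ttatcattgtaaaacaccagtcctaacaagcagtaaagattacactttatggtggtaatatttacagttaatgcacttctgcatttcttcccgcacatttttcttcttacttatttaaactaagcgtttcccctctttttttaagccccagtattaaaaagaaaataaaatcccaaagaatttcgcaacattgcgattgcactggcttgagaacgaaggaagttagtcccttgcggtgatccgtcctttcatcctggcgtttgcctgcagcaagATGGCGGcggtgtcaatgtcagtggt
NDUFS7: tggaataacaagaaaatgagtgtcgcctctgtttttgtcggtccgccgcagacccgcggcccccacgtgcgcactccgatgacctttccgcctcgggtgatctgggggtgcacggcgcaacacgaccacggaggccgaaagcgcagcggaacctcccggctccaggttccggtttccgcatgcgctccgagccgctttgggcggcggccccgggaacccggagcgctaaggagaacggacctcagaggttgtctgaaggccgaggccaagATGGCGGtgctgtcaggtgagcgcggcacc
NDUFAB1: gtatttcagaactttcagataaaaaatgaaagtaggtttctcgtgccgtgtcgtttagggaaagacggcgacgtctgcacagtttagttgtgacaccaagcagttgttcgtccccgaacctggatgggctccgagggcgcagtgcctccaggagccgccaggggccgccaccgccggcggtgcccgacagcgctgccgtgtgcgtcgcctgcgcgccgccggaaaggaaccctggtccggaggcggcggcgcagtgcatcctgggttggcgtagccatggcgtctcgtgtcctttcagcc
NDUFB1: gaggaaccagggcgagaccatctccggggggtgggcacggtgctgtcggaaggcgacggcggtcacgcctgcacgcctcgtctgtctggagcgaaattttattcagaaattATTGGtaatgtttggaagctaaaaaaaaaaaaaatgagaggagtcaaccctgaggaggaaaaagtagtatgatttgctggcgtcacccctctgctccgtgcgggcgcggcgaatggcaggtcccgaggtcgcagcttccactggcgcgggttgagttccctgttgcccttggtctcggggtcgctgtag

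Taken as deposited, complex I subunit promoters had lower levels in the knockout in both tables, by close to the amount seen at promoters of any kind. In the first table their median log2 fold change was -0.78 over 25 genes (quartiles -1.13 and -0.61, range -2.12 to 0.15), against -0.93 (quartiles -1.19 and -0.68) over all 10187 gene promoters. In the second table it was -1.21 over 21 genes (quartiles -1.38 and -1.14, range -1.76 to -1.0), against -1.26 (quartiles -1.44 and -1.08) over 8298 gene promoters. A fold change of -1 or below was present at 8 of 25 subunits in the first table, where 43.4% of gene promoters had one. In the second table all 21 had one, where 83.4% of gene promoters did. Counted against the medians of all peaks, 15 of 25 subunits lay above in the first table and 11 of 21 in the second, beside 43.2% and 45.6% of gene promoters. None of the subunits passed an adjusted p of 0.05 in either of the authors' deposited tables, beside 0% of gene promoters. Their adjusted p-values ran from 0.731 to 0.965 in the first, and all 21 were 0.578 in the other. A limma fit that took each table as 1 replicate block called 20 of 21 subunits, beside 96.7% of all joined peaks, and 0 once each table was centred on its median, beside 0.009%. At an unadjusted p under 0.05, NDUFS4 was the 1 subunit in the first table (0.697% of gene promoters) and there was none in the second (0.0241%).

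The small distance between the subunits and other promoters changed sign once the region of the genome was taken into account. The subunit median exceeded the all-promoter median by 0.15 in the first table and by 0.05 in the second. After the median of the other peaks in the same 5 Mb bin was subtracted, the same differences were -0.04 and -0.065. These rest on the 24 and 19 subunits with enough other peaks in their bin. With the trend of fold change with peak level removed instead, the differences were 0.145 and 0.05. Subunit peaks were also somewhat weaker than others, with 8 of 25 above the median level of gene promoters. Their median level was 214 normalised reads in the first table, against 236 for gene promoters, with the weakest at 64.0 (NDUFS4) and the strongest at 2798 (NDUFA11).

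**Figure D1:**
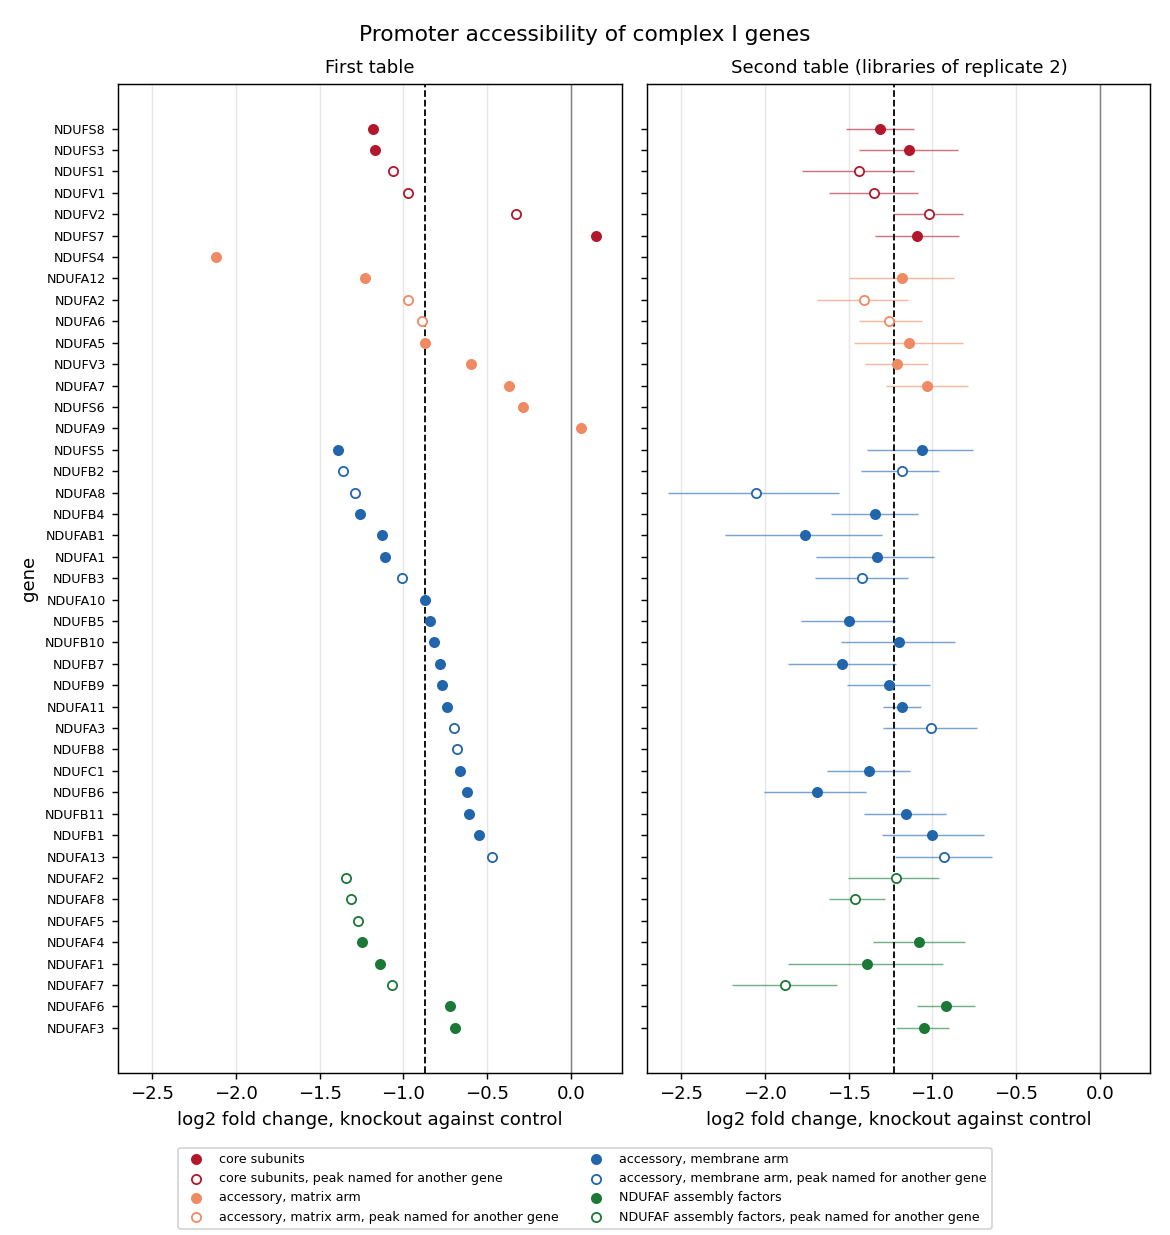
Log2 fold change of the complex I gene promoters named in the text (x axis) in the first table (left) and the second (right), with genes on the y axis grouped by role and the dashed lines at the table medians of -0.87 and -1.23. Filled points are members by symbol, open points are genes whose RefSeq start lies in a peak named for another gene, and bars on the right are 95% counting intervals; on the left NDUFS4 stands lowest at -2.12, and on the right the highest point is NDUFAF6 at -0.92.

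The core subunits carry the flavin, the iron-sulfur clusters and the quinone site, and 4 of the 7 nuclear ones were members by symbol. NDUFS7 lines the quinone site. The NDUFS7 promoter (chromosome 19, 1383316 to 1384138) had the highest fold change of all subunits per the authors' first deposited table, 0.15 with an adjusted p of 0.931, where 2.49% of gene promoters were above 0. At that promoter the knockout library of replicate 2 held 190 reads and the control 405 normalised reads, a fold change of -1.09 per the authors' second deposited table (95% interval -1.34 to -0.84, which covers counting error only, as do those that follow in parentheses). The knockout was thus the lower library in the second table, while the first gave a value near 0. The median of the other peaks in its 5 Mb bin was -0.655 in the first and -1.13 in the second table.

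NDUFS3 and NDUFS8 belong to the part of the matrix arm that links the NADH site to the membrane, and NDUFS8 binds iron-sulfur clusters. Their promoters had nearly the same value per the authors' first deposited table, -1.17 and -1.18. For replicate 2, NDUFS3 had 138 knockout and 304 normalised control reads, a fold change of -1.14 (-1.44 to -0.85) per the authors' second deposited table. NDUFS8 had 276 and 685 reads, or -1.31 (-1.52 to -1.11) per the authors' second deposited table. NDUFS3, NDUFS7 and NDUFS8 each had fewer reads in the knockout library of that pair, and each of their counting intervals included the table median of -1.23.

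Among the accessory subunits of the matrix arm, 7 of 9 were members, and these held both the lowest subunit and the second highest of the first table. NDUFS4, a late-joining subunit whose loss causes Leigh syndrome, had a fold change of -2.12 per the authors' first deposited table (p = 0.0195, adjusted p of 0.731) at chromosome 5, 53560656 to 53561099. That peak was the narrowest of the subunits, at 444 bp, and among the weakest of all gene promoters (level percentile 5.35), and it had no counterpart in the second table. Other peaks of its region had -0.985 as their first-table median, so it stood -1.135 from them. Its RefSeq start lies 17 bp before the peak's first base.

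NDUFA9, which sits where the arms meet, had 0.06 per the authors' first deposited table at chromosome 12, 4604758 to 4605245, but that peak is not at its RefSeq start. The RefSeq gene starts at 4649114, which is 43869 bp away, and the start of DYRK4, a kinase gene, lies in the peak instead. At the RefSeq start of NDUFA9 there was a weak peak named for AKAP3 with 23.6 normalised reads and a fold change of -1.55 (p = 0.0169, adjusted p of 0.731) per the authors' first deposited table. The value given for NDUFA9 thus hinges on which of these peaks is taken. Neither had a peak in the second table.

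NDUFS6, a zinc-binding subunit, stood at -0.29 per the authors' first deposited table and had no second-table peak. NDUFA7 had -0.37 in the first table and, with 202 knockout and 413 normalised control reads, -1.03 (-1.28 to -0.79) per the authors' second deposited table. Its peak also holds the start of RPS28, a ribosomal protein gene on the other strand, so the signal cannot be assigned to either gene alone. NDUFV3, which varies by isoform between tissues, had -0.60 in the first table and -1.21 from 324 and 750 reads per the authors' second deposited table. With 113 and 249 reads, and 120 and 272, NDUFA5 and NDUFA12 stood at -0.87 and -1.23 in the first and at -1.14 and -1.18 per the authors' second deposited table. The 4 matrix-arm accessory members with a second-table peak were each above that table's median, as were 45.6% of gene promoters. Each of their counting intervals included that median. NDUFA2 and NDUFA6, found by their RefSeq start and given further down, were below it, at -1.41 and -1.26. The 4 members had a median of -1.16 in the second table, and in the first the 7 had a median of -0.60.

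The accessory subunits of the membrane arm were the largest group, with 14 of 21 as members. Their median was -0.80 in the first table and -1.33 over 13 genes in the second, with ranges of -1.39 to -0.55 and -1.76 to -1.0. NDUFAB1 is the mitochondrial acyl carrier protein, found in both arms, and also serves fatty acid and iron-sulfur cluster synthesis. It was the lowest of the subunits chosen by symbol in the second table. At chromosome 16, 23596068 to 23596670, it had -1.13 per the authors' first deposited table. Its second-table peak held 49.9 knockout and 169 normalised control reads, a fold change of -1.76 (-2.24 to -1.30). NDUFB6 was next, with 118 and 383 reads and -1.69 (-2.0 to -1.40) per the authors' second deposited table, but its first-table value of -0.62 was above the subunit median. These were the only 2 of 21 subunits whose counting interval lay wholly below the table median, where 19.4% of gene promoters had such an interval. None of the 21 had an interval wholly above it, where 14.1% of gene promoters did. The intervals of the other subunits with a second-table peak included the table median, and the median width over all 21 was 0.588.

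At the lower end of the membrane arm in the first table stood NDUFS5 (-1.39), NDUFB4 (-1.26) and NDUFA1 (-1.11) per the authors' first deposited table. Their second-table values were -1.06, -1.34 and -1.33 per the authors' second deposited table. NDUFS5 had 122 knockout and 256 normalised control reads there, NDUFB4 172 and 437, and NDUFA1, an X-linked subunit, 93.7 and 237. NDUFS5 was low in the first table only, while NDUFB4 and NDUFA1 were below the median of both.

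At the upper end, NDUFB1 had -0.55 per the authors' first deposited table. Its second-table value, -1.0 (-1.30 to -0.69), was the highest of the subunits chosen by symbol, from 134 knockout and 267 normalised control reads. Its peak on chromosome 14 also holds the start of CPSF2, a gene of mRNA 3′ end processing. NDUFB11 (-0.61), NDUFB6 (-0.62) and NDUFC1 (-0.66) followed per the authors' first deposited table, with -1.16, -1.69 and -1.38 per the authors' second deposited table. NDUFB7 and NDUFB5 were the next lowest subunits of the second table after NDUFB6, at -1.54 (106 and 307 reads) and -1.50 (143 and 405 reads) per the authors' second deposited table. In the first table they stood at -0.78 and -0.84, close to the median of all peaks.

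NDUFA11 had by far the strongest member peak, at percentile 99.9 of gene promoters by level. It held 910 knockout and 2062 normalised control reads in the libraries of replicate 2, so its fold change of -1.18 (-1.29 to -1.07) per the authors' second deposited table is the most precise of the set. In the authors' first deposited table it had -0.74. Its own RefSeq start lies 12 bp outside the peak, and the start of VMAC lies inside it, on chromosome 19 at 5903802 to 5904943. The remaining membrane-arm members had values near the medians: NDUFB10 with -0.82 and -1.20 and NDUFB9 with -0.77 and -1.26 in the authors' deposited tables. NDUFA10 had -0.87 per the authors' first deposited table and no second-table peak. Of all 25 subunits, 4 lacked a second-table peak (NDUFA9, NDUFS4, NDUFS6 and NDUFA10), and 81.5% of gene promoters had one.

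**Figure D2:**
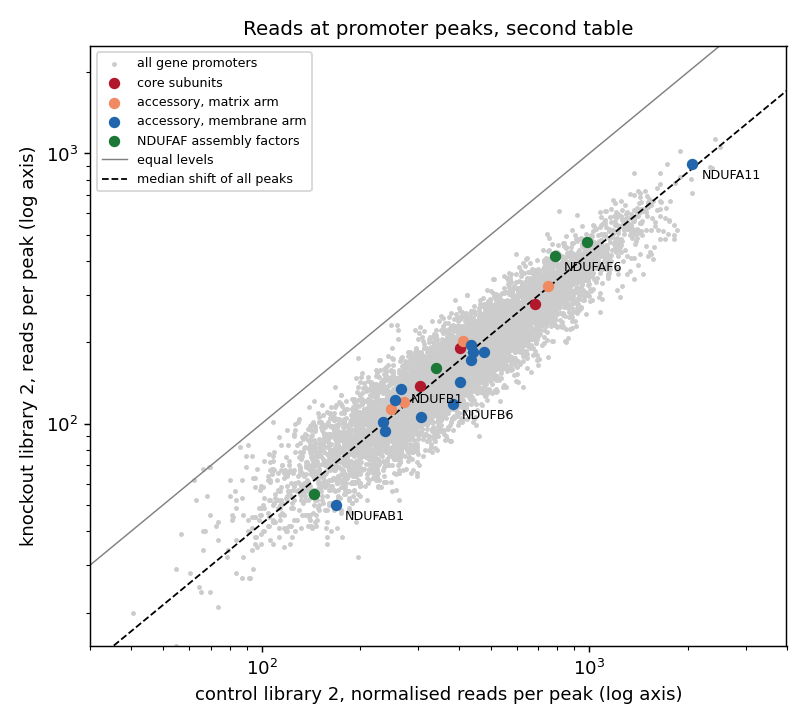
Reads per promoter peak in the control library of replicate 2 (x axis, normalised, log axis) and the knockout library (y axis, log axis), with all gene promoters in grey and complex I members chosen by symbol and named in the text in colour by role. Every coloured point lies below the line of equal levels and near the dashed line of the median shift, from NDUFAB1 with 49.9 knockout reads to NDUFA11 with 910.

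The NDUFAF assembly factors were read apart, and 4 of 8 were members by symbol. NDUFAF3 and NDUFAF4, which bind the early quinone module together, had -0.69 and -1.25 per the authors' first deposited table. In the libraries of replicate 2, NDUFAF3 had 471 and 982 reads, or -1.05 (-1.22 to -0.90), and NDUFAF4 had 161 and 340 reads, or -1.08 (-1.36 to -0.81) per the authors' second deposited table. NDUFAF6, which acts on the mitochondrially encoded part of the membrane arm, had its strongest promoter peak on chromosome 8 at 94895062 to 94896561. It had -0.72 per the authors' first deposited table and, with 416 and 787 reads, -0.92 (-1.09 to -0.75) per the authors' second deposited table. A further NDUFAF6 promoter peak at 95024631 to 95025327 had -0.56 and -0.98 in the authors' deposited tables. NDUFAF1, part of a membrane-arm assembly complex with ECSIT and ACAD9, was the lowest of the 4 in the second table, at -1.39 (-1.86 to -0.94) from 55.0 and 144 reads, and had -1.14 per the authors' first deposited table.

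The medians of the 4 were -0.93 and -1.065, with 2 and 3 genes at -1 or below beside the 43.4% and 83.4% of gene promoters. The intervals of NDUFAF3 and NDUFAF6 lay above the second table's median, where 14.1% of gene promoters had such an interval. Those of NDUFAF1 and NDUFAF4 included that median.

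Assembly genes with other names formed a list of 12, all with a promoter peak. They had lower medians than the subunits, -1.02 over 12 genes in the first table and -1.41 over 11 in the second, and 7 and 11 genes at -1 or below, beside 43.4% and 83.4% of gene promoters. NUBPL, which delivers iron-sulfur clusters to complex I, had -1.22 and the lowest value of the list in the second, -2.0, from 58.1 knockout and 231 normalised control reads in the authors' deposited tables. TMEM126B and TMEM186, of the same assembly complex as NDUFAF1, had -0.96 and -1.65, and -1.38 and -1.64, in the authors' deposited tables. ECSIT (-0.59 and -1.46), ACAD9 (-0.91 and -1.10) and TIMMDC1 (-1.02 and -1.41) belong to that complex or act with it. None of the 12 passed an adjusted p of 0.05 in the authors' deposited tables, and whether the list differs from the subunits was not tested.

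By symbol, 12 of the 37 nuclear subunit genes were not members. For 11 of them a RefSeq start lay inside a first-table peak that carried another gene's symbol. NDUFC2, a membrane-arm subunit on chromosome 11, has the same upper end of its RefSeq interval, 78079862, as its readthrough gene NDUFC2-KCTD14, whose peak was listed. That peak had -0.08 and -0.48 in the authors' deposited tables, the second above every subunit value given here. It was left out of all subunit medians and ranges. So each of the 37 had a promoter peak under its symbol or an open start under another. This step was added after the values were seen.

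The core subunits recovered in this way were NDUFS1, NDUFV1 and NDUFV2. NDUFV1, which binds NADH and flavin, starts in a peak named for C11orf72, with -0.97 per the authors' first deposited table and -1.35 from 160 and 407 reads per the authors' second deposited table. NDUFS1, the largest iron-sulfur subunit, shares its peak with EEF1B2, a translation elongation factor gene on the other strand, and had -1.06 and -1.44 in the authors' deposited tables. NDUFV2 starts in a peak named for ANKRD12 and had -0.33 and -1.02 in the authors' deposited tables, above the median in both.

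Accessory subunits recovered in this way spanned a wider range in the second table than the members did. NDUFA8 shares its peak with MORN5 on chromosome 9 and had only 41.1 knockout and 170 normalised control reads, a fold change of -2.05 (-2.58 to -1.56) per the authors' second deposited table and -1.29 in the first. Other peaks of that region were low too, with medians of -1.25 and -1.54. NDUFA13, known also as the cell death regulator GRIM-19, was at the other end, with -0.47 and -0.93 (-1.22 to -0.64) in the authors' deposited tables. The interval of NDUFA13 lay wholly above the second table's median and that of NDUFA8 wholly below it. Of gene promoters, 14.1% and 19.4% had such intervals. NDUFA3 had -0.70 and -1.01, NDUFA2 -0.97 and -1.41, NDUFA6 -0.89 and -1.26, NDUFB2 -1.36 and -1.18, and NDUFB3 -1.01 and -1.42 in the authors' deposited tables. NDUFB8 had a weak first-table peak of 46.9 normalised reads, with -0.68, and none in the second. With these genes added, and NDUFA9 taken at its RefSeq start, the subunit medians were -0.855 over 36 genes and -1.26 over 31, and the second equals the all-promoter median.

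The same step found the other 4 NDUFAF genes, all in peaks named for a gene on the other strand. NDUFAF2, a stand-in for NDUFA12 during assembly, shares a peak with the DNA repair gene ERCC8 and had -1.34 and -1.22 in the authors' deposited tables. NDUFAF7, an arginine methyltransferase of the matrix, shares one with CEBPZ and had -1.07 and -1.88 (-2.20 to -1.57) in the authors' deposited tables. NDUFAF8 shares one with TEPSIN and had -1.31 and -1.46 (-1.62 to -1.28), and its partner NDUFAF5, which hydroxylates an arginine of NDUFS7, shares one with ESF1 and had -1.27 per the authors' first deposited table. The regions of NDUFAF7 on chromosome 2 and NDUFAF8 on chromosome 17 had medians of -1.20 and -1.19 in the first table and of -1.54 and -1.545 in the second. The intervals of NDUFAF7 and NDUFAF8 lay wholly below the second table's median, where 19.4% of gene promoters had such an interval. Over all 8 NDUFAF genes the first-table median was -1.195, lower than the -0.93 of the 4 members by symbol. The second-table median over 7 was -1.22.

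Some members shared a promoter peak too. Of the 25 subunit peaks, 10 held the RefSeq start of another gene, among them RNF113A with NDUFA1, KBTBD4 with NDUFS3, GLTC1 with NDUFS8, RBM10 with NDUFB11, MRPL47 with NDUFB5 and NAA15 with NDUFC1. Those 10 had medians of -0.70 and, over 9 of them, -1.18. The 15 without another start had -0.82 and, over 12, -1.235. ATAC-seq reads carry no strand of transcription, so no share of a common peak can be given to either gene.

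Of the NDUF symbols read apart, NDUFA4 (COXFA4 in RefSeq) is a subunit of complex IV and had -0.76 and -1.41 from 145 knockout and 385 normalised control reads in the authors' deposited tables. Its hypoxia-inducible relative NDUFA4L2 had -0.86 at its strongest promoter peak and -0.23 at the weaker one at its start, per the authors' first deposited table. The readthrough NDUFC2-KCTD14 stood well above both medians, with -0.08 and, from 89.9 and 125 reads, -0.48 (-0.88 to -0.08) in the authors' deposited tables. Noncoding RNA names marked the other 3: NDUFA6-DT and NDUFB2-AS1, whose peaks hold the starts of NDUFA6 and NDUFB2, and NDUFV2-AS1, with -0.99 and -1.14 in the authors' deposited tables at the start of ANKRD12.

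Away from promoters, 5 of the 42 peaks with an NDUF symbol were intronic or intergenic. The lowest was a peak 15208 bp from the NDUFB11 start on the X chromosome, at 47129118 to 47129830, with -1.88 (p = 0.0922, adjusted p of 0.731) and -1.49 in the authors' deposited tables. A peak at -36417 bp from the NDUFB4 start had -0.69, an intronic one nearest NDUFAF6 -0.59, and those nearest NDUFV2 -1.20 and -0.55 per the authors' first deposited table. The nearest gene of such a peak need not be its target.

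**Figure D3:**
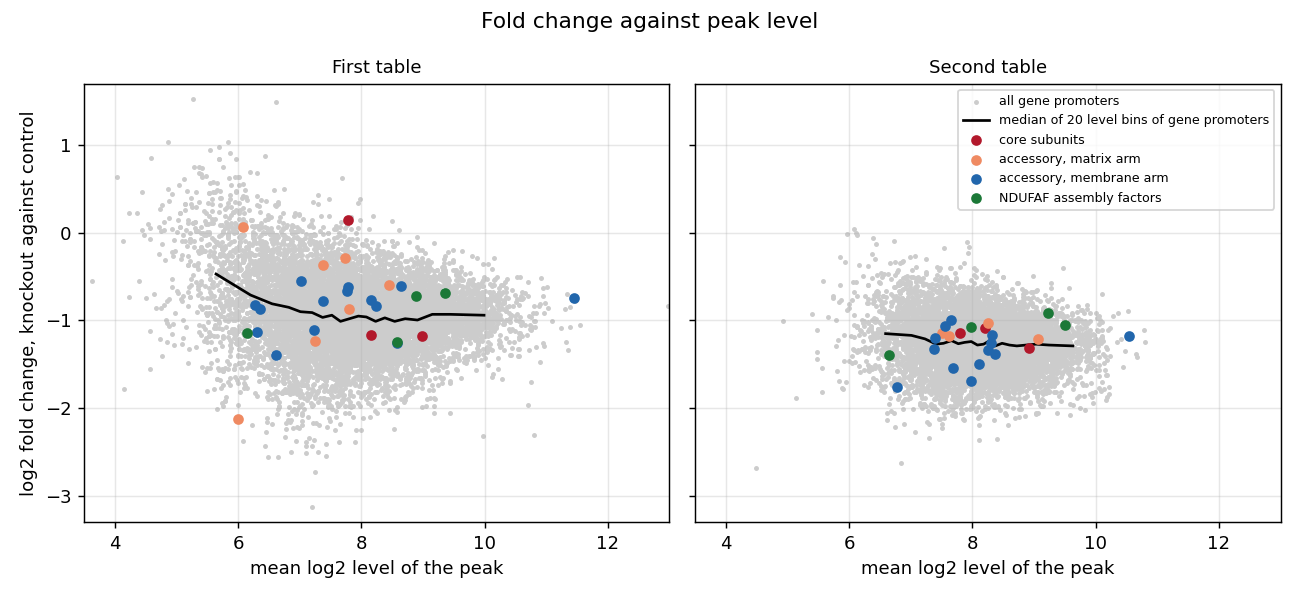
Log2 fold change (y axis) against the mean log2 level of the peak (x axis) for all gene promoters in grey and complex I members chosen by symbol and named in the text in colour, in the first table (left) and the second (right), with the black line joining medians of 20 level bins. Complex I genes lie on both sides of the line, with NDUFS7 and NDUFS4 at the extremes of the first table at 0.15 and -2.12.

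The other respiratory complexes gave a frame for these values. Promoters of complexes II to V had medians of -0.86 over 42 genes and -1.22 over 39, beside -0.78 and -1.21 for complex I subunits. Unlike the complex I subunits, these lists also hold assembly genes (such as SDHAF1, UQCC1 and COX11) and a readthrough gene, ATP5MF-PTCD1. Complex III had the highest medians, -0.64 and -1.15 over 9 genes, and complexes II, IV and V had -0.92, -0.90 and -0.87 in the first table and -1.23, -1.23 and -1.16 in the second. The standard deviation over complex I subunits was 0.468 in the first and 0.208 in the second table, against 0.432 and 0.291 over all gene promoters. No test of a difference between these lists was run, since genes of 1 pair of libraries are not replicates.

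**Figure D4:**
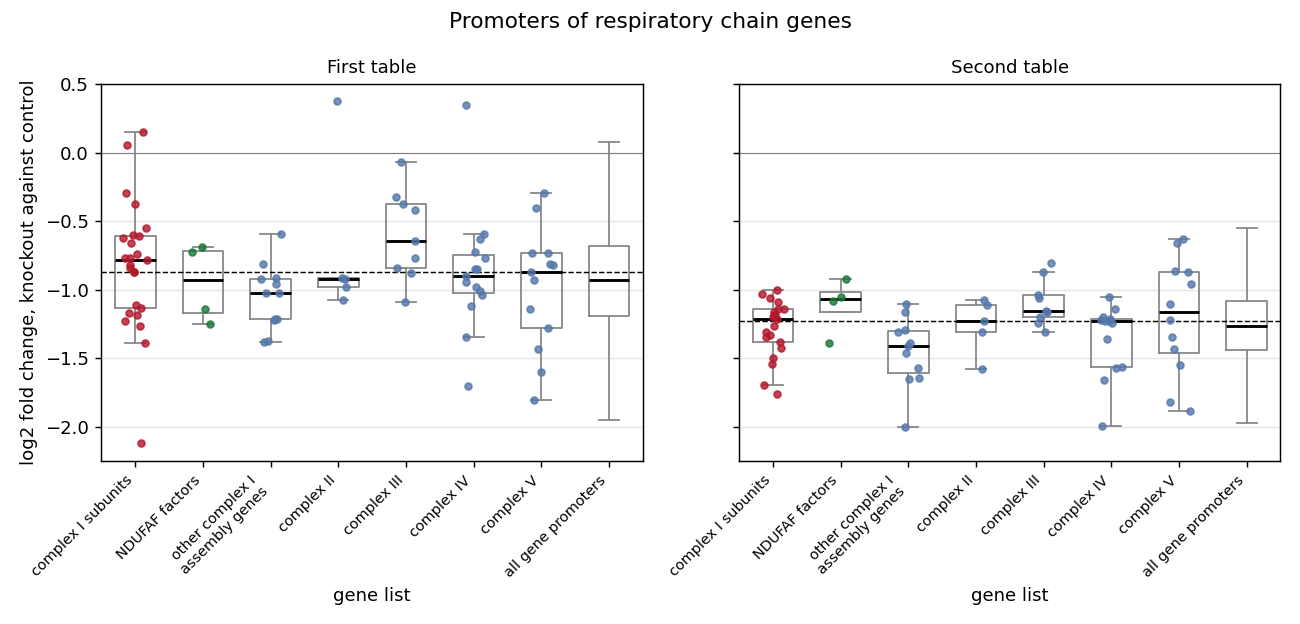
Log2 fold change (y axis) of promoters by gene list (x axis) in the first table (left) and the second (right); boxes span the quartiles with the median as a black bar, whiskers reach the farthest value within 1.5 box lengths, and points are genes. The list of other complex I assembly genes has the lowest median of the lists in both panels, -1.02 and -1.41.

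Promoter sequence offered a feature that choosing by symbol had not used. Windows of 300 bases were available for 32 subunits, by symbol or by start, with a median GC content of 62.0%, against 66.0% for 10816 windows whose start lay in a promoter peak. NDUFB5, NDUFB9, NDUFS5 and NDUFC2 were among those with no entry in the table. Motifs of 6 kinds were searched on both strands, and no matches of different motifs overlapped in these windows. The letters ATGGCGG, the heart of the YY1 motif, were present in 14 of 32 subunit windows (43.8%), against 11.5% of the windows with an open start and 5.6% of all 34943 windows. YY1 is a zinc finger factor with known sites in promoters of respiratory genes. Of complexes II to V, 7 of 30 windows had a match (23.3%), assembly genes such as COX20, SDHAF1 and UQCC2 included. Of the other complex I assembly genes, 0 of 10 had one.

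Most of these matches had the same place and direction. In 9 subunits the letters lay on the gene's own strand between 12 and 29 bases after the RefSeq start, counted from 1 at the start itself. Among the windows with an open start, 5.2% had such a match anywhere in the 50 bases after it, against 28.1% of the subunit windows. These 9 stretches are shown because they carry the feature that set the subunit windows apart in number, with the motif in capitals and 10 bases on either side.
NDUFA13: tactgcgagtATGGCGGcgtcaaaggt
NDUFA5: tggcgctgtcATGGCGGgtgtgctgaa
NDUFA6: ctttggcaagATGGCGGggagcggcgt
NDUFA9: gtgggaaaagATGGCGGctgccgcaca
NDUFB11: accatctgtcATGGCGGctgggctgtt
NDUFS3: tctgagtaacATGGCGGcggcggcggt
NDUFS4: ctgcagcaagATGGCGGcggtgtcaat
NDUFS6: gcggcgcaaaATGGCGGcggcgatgac
NDUFS7: cgaggccaagATGGCGGtgctgtcagg
The letters contain ATG, and whether that ATG is the start codon was not looked up.

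Other motifs were nearer to the background or below it. The NRF1 letters GCGCA, any base and GCGC, bound by nuclear respiratory factor 1, were in 18.8% of subunit windows and 14.1% of windows with an open start, in NDUFA11, NDUFA12, NDUFA3, NDUFA8, NDUFA9 and NDUFB4. The ETS core CCGGAAG, read by GABPA and its relatives, was in 15.6% against 22.4%, and the SP letters GGGCGGG in 34.4% against 56.7%. A CRE (TGACGTCA) was found in NDUFA10 and NDUFB2, 6.2% against 3.8%, and CCAAT in 25% against 37.9%. A match is a description of letters and not a binding site.

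Fold changes of subunits with and without the YY1 letters overlapped widely. The 14 with them had a first-table median of -0.74 (range -2.12 to 0.15) and the 18 without -0.92. In the second, the 11 with them had -1.14 and the 16 without -1.345. Both NDUFS7 and NDUFS4, the ends of the first table, carry the letters at 21 and 25 bases. Over all gene promoters with a window, those with the letters had medians of -0.92 and -1.24 and those without -0.96 and -1.27. For the NRF1 letters the subunit medians were -1.245 over 6 with them and -0.845 over 26 without in the first table, and -1.18 over 5 and -1.235 over 22 in the second, so the sign of the difference was not the same. For the SP letters they were -0.78 over 11 and -1.06 over 21, then -1.32 over 8 and -1.20 over 19. No test was run on these splits.

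**Figure D5:**
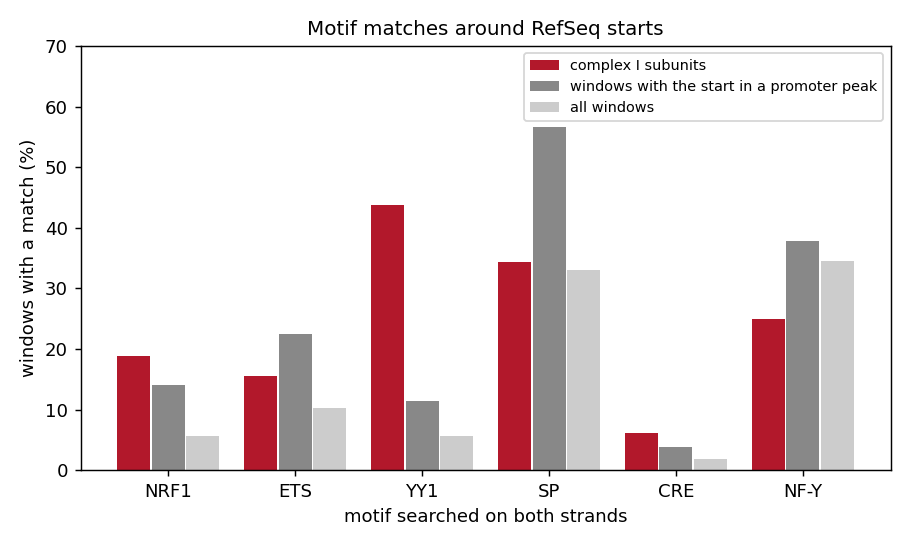
Share of windows with a match (y axis, percent) for each of 6 motifs (x axis; NF-Y marks its 5-letter box) in complex I subunits, in windows whose start lies in a promoter peak and in all windows. The subunit bar for YY1 reaches 43.8%, against 11.5% and 5.6%.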

How the data were processed

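ATAC-seq peaks were analysed from 2 tables that the authors deposited. Per the submitters' processing notes, the tools were MACS2 2.1.2, Bowtie2, ChIPseeker, cutadapt, SAMtools and deepTools, with hg38. Read shifting, duplicate removal and scaling are not given in the sources used here. Values in the authors' deposited tables are log2 mean levels, log2 fold changes of treated against control, p-values and adjusted p-values, and, in the second table, log2 levels of the libraries of replicate 2, per the file headers. The first table's columns carry numbers only and were identified by order and range, and 2 of them, of unnamed libraries, were not used. The planned count test was not run, since counts of the 4 libraries were not given. Columns of the second table were matched to libraries by the name and number in their headers.

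The log2 levels were turned back into reads: 100% of 361 weak knockout values and of 170 weak control values, the latter after division by 0.9192, were whole within 0.01 (log2). Exact (Clopper-Pearson) 95% intervals on these reads cover counting error only. Peaks of the tables were joined by the largest overlap of at least 1 bp. The level trend was the median of 20 bins and the regional trend that of at least 10 others in a 5 Mb bin. The rule for naming took all members, with full values for core subunits, NDUFAF genes and the 5 lowest and 5 highest subunits of each table. Some genes are not reported here by name, though counts and medians include all members. Members and lists were chosen with earlier results of these data known. limma 3.58.1 in R 4.3.3 was used for a fit on 11117 joined peaks. On simulated data it recovered 100 of 100 shifts of -2 and 100 of 100 of -3 (log2), with 9 false calls. Smaller shifts were not simulated, so whether it could call shifts of the size of the centred subunit values was not checked. Python 3.11.15 with pandas 2.3.3, numpy 2.4.6 and scipy 1.17.1 was used for the rest. Motif windows and gene starts are from RefSeq (GRCh38.p14). Separate cultures are not named in the labels, so spread between them may be technical.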

Additional observations from a re-analysis of the deposited data

How the results depend on the processing

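Averaging all promoter peaks of a gene, keeping promoters within 1 kb and asking for an overlap over most of both peaks moved none of the medians, differences and counts at -1 or below by 0.1 (log2) or 1.5 times. Values in the order first and second table follow for those that did move. Centring on the table median gave subunit medians of 0.09 and 0.02, NDUFAF medians of -0.06 and 0.165, and 1 of 25 and 0 of 21 subunits at -1 or below. With the level trend removed these were 0.15 and 0.05, -0.018 and 0.215, and 1 of 25 and 0 of 21. With the regional trend removed they were -0.102 and -0.095, -0.008 and 0.115, and 1 of 24 and 0 of 19. The differences from all promoters were then -0.042 and -0.065. Each of these 3 steps takes out the shared shift by construction, and the share of all gene promoters at -1 or below was not counted after them. Peaks at or above the median level left 5 of 17 and 12 of 12 subunits at -1 or below, and an NDUFAF median of -0.72 in the first table. The share of all gene promoters was not counted under this filter. A threshold of 0.5 gave 21 subunits in the first table, where 86% of gene promoters passed it, and one of 1.5 gave 1 and 4, where 7.86% and 19.5% did. Adding genes by RefSeq start was an alternative chosen after the data were seen. It gave 13 of 36 subunits at -1 or below in the first table, beside 43.4% of gene promoters, and NDUFAF medians of -1.195 and -1.22.

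In place of the authors' test, a limma fit with a replicate block, on both tables' fold changes of each joined peak, called 20 of 21 subunits as deposited, where 96.7% of peaks were called, and 0 of 21 once centred (0.009%). It assumes that the tables are independent replicates, which could not be checked because the first table's libraries are not named. At an unadjusted p under 0.05 there was 1 subunit in the first and 0 in the second table. No single library was left out, because each table gives 1 fold change per peak. In the second table the counting interval of a subunit spanned 0.224 to 0.939 on the log2 scale.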
